A study of Mus musculus with 58 samples.

Results

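The muscle atrophy ubiquitin ligases described here are 10 genes, Trim63, Fbxo32, Fbxo30, Fbxo31, Fbxo40, Traf6, Cblb, Ubr2, Nedd4 and Asb2, out of 18820 genes that the arrays measured under a single gene symbol. They were taken by name from known atrophy biology, and every probe set annotated to 1 of these symbols alone was used. All 10 were found, 9 of them by 1 probe set and Ubr2 by 2 probe sets, whose values were averaged. The arrays measured total RNA of the extensor digitorum longus (EDL, a mainly fast-fibred leg muscle), the soleus (SOL, a mainly slow-fibred leg muscle) and the heart of male CD2F1 mice, 6 to 8 weeks old and about 20 g at the start. Tumour-bearing mice received C26 colon adenocarcinoma cells under the skin of the flank on day 0, and control mice received the buffer alone. Whole body vibration (WBV) was given daily from day 1, for 15 min at 45 Hz and 1.0 g, and tissues were taken on day 19. The groups were control without training (C), control with training (C + WBV), tumour-bearing without training (T) and tumour-bearing with training (T + WBV). EDL and SOL were each measured in 5 mice of T + WBV and 6 of every other group, and the heart in 3 mice of each group, all from the same 23 mice. Replicate numbers are those of the muscles. Heart values are listed in the order of muscle replicates 2, 3 and 5 for C, 3, 5 and 6 for C + WBV, 4, 5 and 6 for T, and 1, 2 and 4 for T + WBV.

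Ubiquitin ligases attach ubiquitin to chosen proteins, and most proteins so marked are broken down by the proteasome. In wasting muscle, transcription of a small set of these ligases rises, with MuRF1 (Trim63) and atrogin-1 (Fbxo32) as the classic markers of atrophy. Some of the 10 are RING ligases, which bind the ubiquitin-carrying enzyme and the substrate themselves (Trim63, Traf6, Cblb). Others are F-box proteins, the part of a Cullin-1 (SCF) complex that selects the substrate (Fbxo32, Fbxo30, Fbxo31, Fbxo40). Ubr2 recognises proteins by their first amino acid, Nedd4 is a HECT ligase that passes ubiquitin on through its own cysteine, and Asb2 selects substrates for a Cullin-5 complex. FoxO transcription factors, which insulin and IGF-1 signalling keep out of the nucleus, are the best known activators of Trim63 and Fbxo32.

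RefSeq promoter windows, the 250 bases before an annotated transcription start in build GRCm38.p6, were at hand for 9 of the 10 members. Fbxo32 had none in the table used. Those of Trim63, Fbxo31, Cblb and Asb2 are shown because the results below turn on these genes. All are written 5′ to 3′ on the gene's own strand and end just before the start site. Capitals mark the core FoxO motif, searched as GTAAACA and its reverse complement TGTTTAC.
Trim63 (chr4:134314870-134315119, plus strand): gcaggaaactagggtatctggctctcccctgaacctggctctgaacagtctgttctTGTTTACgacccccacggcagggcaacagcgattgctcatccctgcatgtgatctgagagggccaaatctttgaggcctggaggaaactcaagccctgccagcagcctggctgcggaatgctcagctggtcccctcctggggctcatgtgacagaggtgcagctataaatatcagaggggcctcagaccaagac
Fbxo31 (chr8:121578807-121579056, minus strand): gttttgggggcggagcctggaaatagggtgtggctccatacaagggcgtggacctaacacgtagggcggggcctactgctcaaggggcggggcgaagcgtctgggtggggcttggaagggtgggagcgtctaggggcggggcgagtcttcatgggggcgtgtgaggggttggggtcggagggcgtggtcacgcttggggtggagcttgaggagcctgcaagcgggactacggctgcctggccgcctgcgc
Cblb (chr16:52031299-52031548, plus strand): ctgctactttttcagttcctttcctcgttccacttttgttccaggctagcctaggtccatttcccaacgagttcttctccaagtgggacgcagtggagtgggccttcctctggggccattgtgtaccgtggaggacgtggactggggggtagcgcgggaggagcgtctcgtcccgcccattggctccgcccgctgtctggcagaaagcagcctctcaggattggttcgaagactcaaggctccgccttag
Asb2, upstream start of the 2 annotated ones (chr12:103356002-103356251, minus strand): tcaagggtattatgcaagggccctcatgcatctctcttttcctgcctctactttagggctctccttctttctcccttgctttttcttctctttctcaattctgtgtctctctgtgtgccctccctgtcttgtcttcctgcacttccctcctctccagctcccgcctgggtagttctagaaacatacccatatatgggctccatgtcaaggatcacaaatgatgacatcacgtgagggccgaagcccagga

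Of the 12 windows of these 9 members, 1 held the FoxO core, that of Trim63, with its first base 194 bases before the start. Among 32851 mouse windows of the same length, 3.166% held it. E-boxes (CANNTG, which reads the same on both strands) occurred 3 times in the Trim63 window, once in the Cblb window, 2 times in the Asb2 window and 0 times in that of Fbxo31, and 66.217% of all windows held at least 1. The windows differed in base composition. The Trim63 window was 56.8% G and C with 4 CpG sites, the Fbxo31 window 68.0% with 18, the Cblb window 58.8% with 14 and the Asb2 window 50.0% with 3, against medians of 52.4% and 6 over all windows. A match to these letters is a description of the sequence and not a bound site.

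The 58 arrays had medians between 4.515 and 4.603 on the log2 scale, and no pair held identical values. Body mass at day 19, as a percentage of that at the start, was 110.7 ± 3.03 (SD, n = 6) for C mice and 109.2 ± 1.46 (n = 6) for C + WBV mice. For tumour-bearing mice it was 81.5 ± 4.98 without training (n = 6) and 86.0 ± 9.35 with it (n = 5). One tumour-bearing mouse, T + WBV replicate 2, stood apart at 100.9%, and the next heaviest, T replicate 3, was at 91.0%. Results on training in tumour-bearing mice, on body mass and on EDL against SOL are therefore also given without T + WBV replicate 2. Some are also given without T replicate 3. The tissues carried the markers of their labels. The mean level of 7 heart muscle markers was 12.14 in the heart of C mice and 5.11 in their EDL, 8 fast fibre markers averaged 12.62 in EDL and 10.34 in SOL, and 6 slow fibre markers averaged 12.19 in SOL and 7.70 in EDL. Levels are log2 intensities and were compared between groups for the same gene and not between genes.

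**Figure D1:**
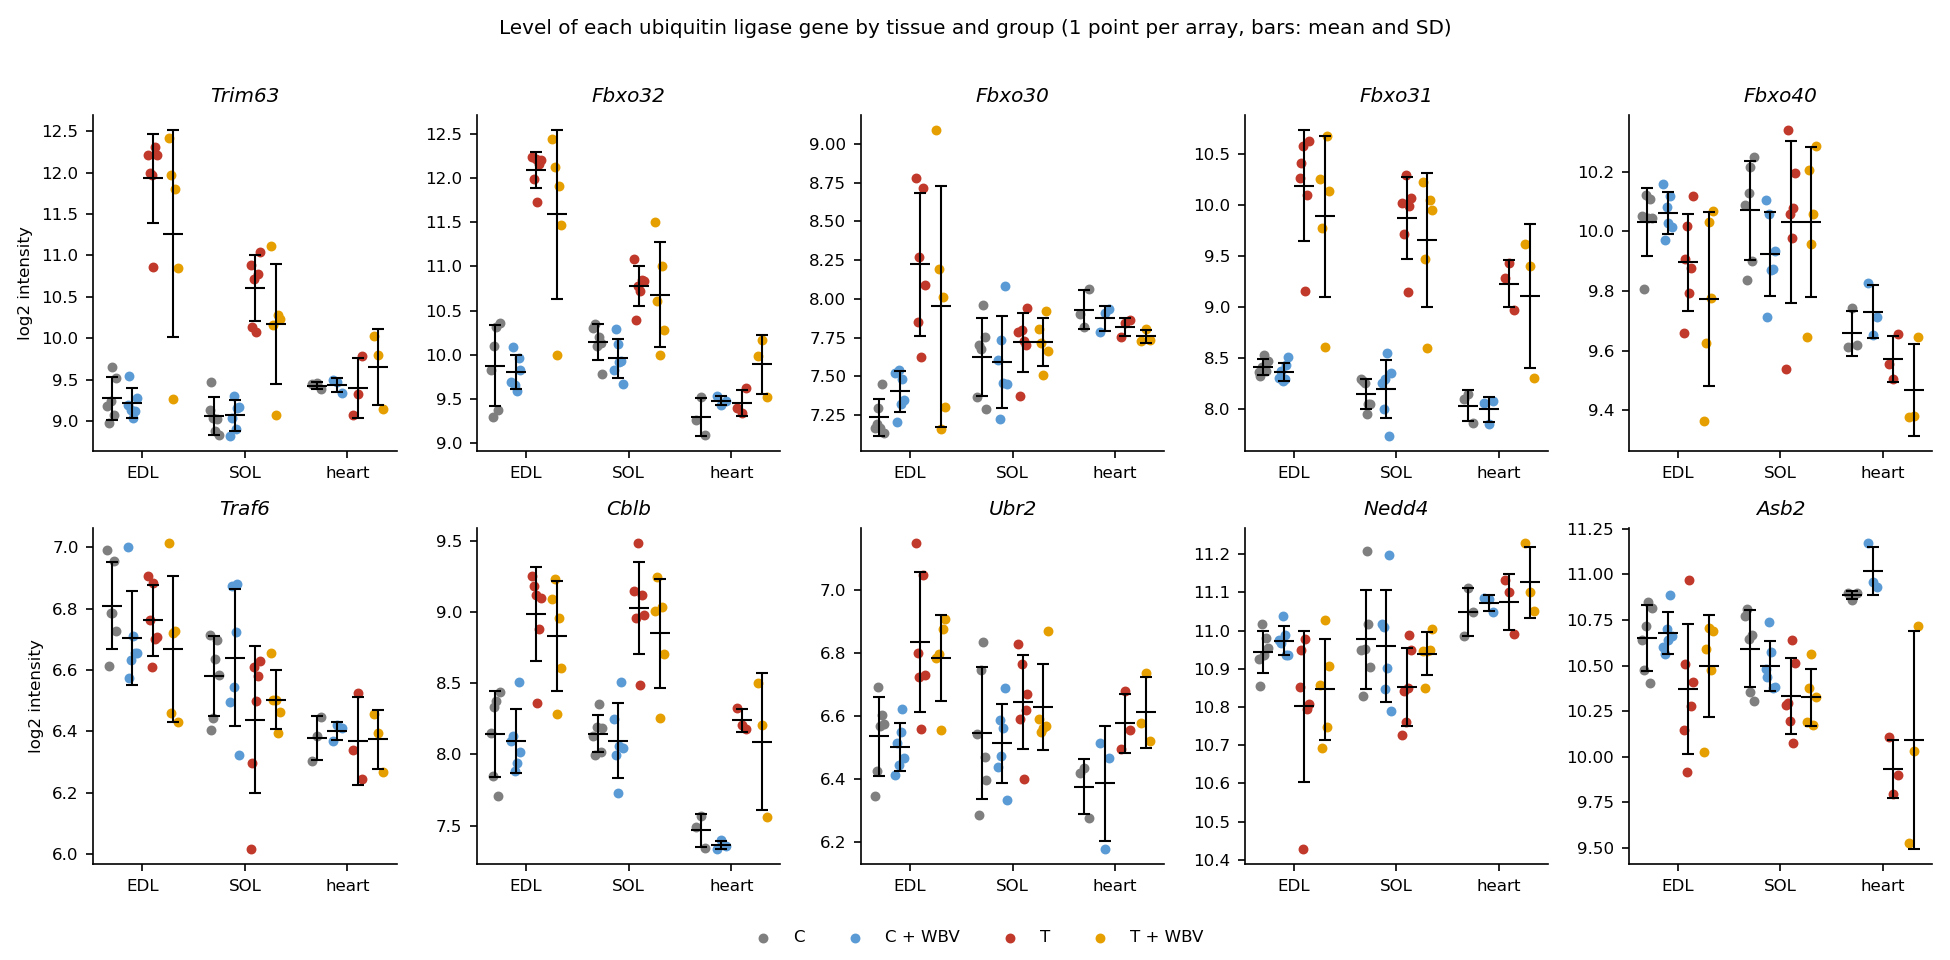
Level of the 10 ligases (log2 intensity) in every mouse, by tissue and group. Each point is 1 mouse, and the bars give the group mean and SD. In EDL the 6 T mice lay at 10.87 or above for Trim63 and the 6 C mice at 9.65 or below, and the T + WBV mice reached from 9.27 to 12.41.

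The first question was how a C26 tumour alone, without training, altered the ligases. In EDL, 5 of the 10 were higher in T than in C, namely Trim63, Fbxo32, Fbxo31, Fbxo30 and Cblb, and 0 were lower. In SOL 4 were higher, Fbxo31, Trim63, Cblb and Fbxo32. In the heart Fbxo31 and Cblb were higher and Asb2 was lower. Of all genes in EDL, 10.7% were called higher and 11.6% lower. The shares were 5.06% and 8.66% in SOL and 2.7% and 3.04% for the heart, where called means an adjusted p under 0.01 (limma, Benjamini-Hochberg over 18820 genes). The median difference of the 10 members was 0.57 in EDL, 0.10 in SOL and 0.01 in the heart (log2), against −0.03, −0.01 and 0.00 over all genes. In whole-tissue RNA, a change in the share of a cell type and a change in RNA per cell cannot be told apart.

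Trim63 encodes MuRF1, a RING ligase that binds the sarcomere and marks thick filament proteins for breakdown. Its level in EDL was 8.97 at the lowest, 9.21 at the median and 9.65 at the highest in the 6 C mice, and 10.87, 12.11 and 12.31 in the 6 T mice. No C mouse reached any T mouse, and the lowest T value was that of replicate 3, the heaviest mouse of the T group. The difference was 2.66 ± 0.33 (log2 ± SE), or 6.31-fold, with an adjusted p of 3.97e-06 in limma. In SOL, C mice lay at 8.83, 9.03 and 9.47 and T mice at 10.08, 10.75 and 11.04, again without overlap, a 2.92-fold difference (1.54 ± 0.22, adjusted p = 2.62e-05, limma). In the heart, Trim63 was 9.46, 9.38 and 9.44 in the C mice and 9.33, 9.79 and 9.07 in the T mice. The heart values of T enclosed those of C, and the difference was −0.03 with a 95% confidence interval of −0.44 to 0.38.

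Fbxo32 encodes atrogin-1, the F-box protein that brings MyoD and the translation factor eIF3f to the SCF complex. In EDL it was 9.30, 9.96 and 10.36 at the lowest, median and highest in C and 11.72, 12.18 and 12.24 in T. The T mice lay close together and clear of C, 4.63-fold higher (2.21 ± 0.26, adjusted p = 2.38e-06, limma). In SOL the ranges came near each other, 9.79 to 10.34 in C and 10.39 to 11.08 in T, with medians of 10.17 and 10.81. That difference of 0.63 ± 0.17, or 1.55-fold, passed narrowly (adjusted p = 0.00967, limma) and was called in 6 of 23 alternative analyses and after leaving out 1 of the 12 mice compared. In the heart it was 9.52, 9.10 and 9.27 in C and 9.35, 9.62 and 9.40 in T, and the difference of 0.16 had a 95% interval of −0.14 to 0.46.

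Fbxo31, an F-box protein best known for directing cyclin D1 to the SCF complex after DNA damage, was higher in all 3 tissues. In EDL the C mice lay within 8.32 to 8.52 around a median of 8.39, and the T mice at 9.15, 10.33 and 10.63, a 3.43-fold difference (1.78 ± 0.24, adjusted p = 6.62e-06, limma). In SOL the C mice lay at 7.95, 8.15 and 8.29 and the T mice at 9.14, 10.00 and 10.29, or 3.31-fold (1.73 ± 0.21, adjusted p = 4.53e-06, limma). The groups did not overlap in either muscle, and replicate 3 was the lowest T mouse in both. In the heart the C mice were at 8.14, 7.86 and 8.10 and the T mice at 9.43, 8.97 and 9.28, 2.29-fold apart (1.19 ± 0.24, adjusted p = 0.00559, limma).

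Cblb, a RING ligase that targets the insulin receptor substrate IRS-1 in unloaded muscle, also differed in all 3 tissues. In EDL it was 7.71, 8.24 and 8.44 in C and 8.36, 9.11 and 9.26 in T, and T replicate 3 was the T mouse that fell within the range of C. In SOL the groups were apart, 8.00, 8.16 and 8.35 in C and 8.49, 9.05 and 9.48 in T. The differences were 0.84 ± 0.16 in EDL and 0.88 ± 0.15 in SOL, which is 1.79-fold and 1.85-fold (adjusted p = 0.000268 and 0.000179, limma). In the heart Cblb was 7.57, 7.34 and 7.49 in C and 8.21, 8.18 and 8.33 in T, 1.71-fold higher (0.77 ± 0.17, adjusted p = 0.00775, limma).

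Fbxo30, also called MUSA1, is an F-box protein that BMP signalling holds down in healthy muscle. In EDL it was 7.13, 7.18 and 7.45 in C and 7.63, 8.18 and 8.78 in T, without overlap, and was 1.98-fold higher (0.99 ± 0.23, adjusted p = 0.0013, limma). In SOL the ranges of 7.29 to 7.96 in C and 7.37 to 7.94 in T nearly coincided, with a difference of 0.10 (95% interval −0.17 to 0.36), and in the heart the difference was −0.11 (−0.28 to 0.06).

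Asb2, whose complex acts on filamins and desmin, was the member called lower in the heart. It was 10.86, 10.90 and 10.90 in C and 9.79, 9.90 and 10.11 in T, so every T heart lay below every C heart (−0.95 ± 0.20, 0.517 times the level of C, adjusted p = 0.00684, limma). In EDL and SOL its differences were −0.28 (95% interval −0.55 to −0.01) and −0.26 (−0.47 to −0.05), neither called. All 3 heart calls had fewer mice behind them than those of the muscles, and none of the 3 was called after any of the 6 mice compared was left out.

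The other 4 ligases were not called in any tissue. Ubr2, an N-recognin of the N-end rule pathway, differed by 0.30 ± 0.09 in EDL (adjusted p = 0.0125, limma), with C mice from 6.35 to 6.69 and T mice from 6.56 to 7.15. Its 2 probe sets were unlike in brightness. In EDL probe set 10445638 averaged 4.12 in C and 4.24 in T, and probe set 10451495 averaged 8.95 and 9.43. Taking the brighter one alone gave 0.48 and an adjusted p of 0.000329 in limma, so the call depended on how the 2 were combined. Fbxo40, which directs IRS-1 to breakdown, differed by −0.13 in EDL, −0.04 in SOL and −0.09 in the heart. Traf6, which builds signalling ubiquitin chains, differed by −0.05, −0.14 and −0.01, and Nedd4, which acts on Notch1 in denervated muscle, by −0.14, −0.12 and 0.03. For these last 3 genes every 95% interval lay between −0.37 and 0.20.

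**Figure D2:**
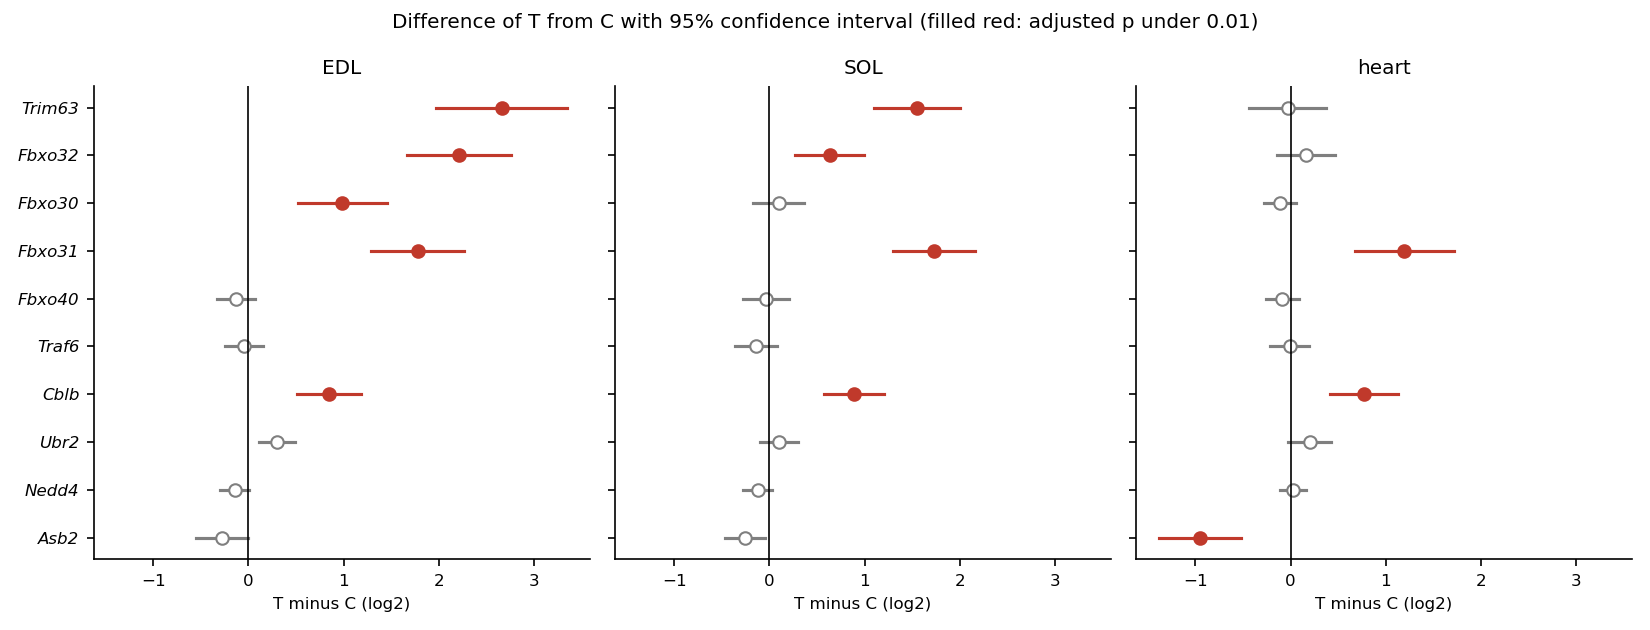
Difference between T and C (log2) for each ligase in EDL, SOL and the heart; points are estimates, bars 95% confidence intervals, and filled red points have an adjusted p under 0.01 (limma). Trim63 ran from 2.66 in EDL through 1.54 in SOL to −0.03 in the heart, while Cblb kept 0.84, 0.88 and 0.77.

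Counted by mouse, C and T did not overlap for 4 members in EDL (Trim63, Fbxo32, Fbxo30 and Fbxo31), 4 in SOL (Trim63, Fbxo32, Fbxo31 and Cblb) and 4 in the heart (Fbxo31, Cblb, Ubr2 and Asb2). Of all genes, 15.4%, 10.6% and 32% did not overlap in these tissues, so with 3 hearts a group the heart count of 4 in 10 was near the share of all genes. Markers of other cell types moved with the tumour in the same arrays. The mean level of 6 fibroblast and tendon markers was 8.59 in C (8.35 to 9.07) and 7.02 in T (6.54 to 8.32) in EDL and 9.25 and 7.47 in SOL, with 4 of 6 lower in each, and in the heart 7.71 and 7.88, with 2 of 6 higher. Neutrophil markers averaged 3.30 in C and 3.95 in T in EDL (3 of 8 higher), 3.17 and 4.18 in SOL (4 of 8) and 3.27 and 4.45 in the heart (3 of 8), and macrophage markers 5.76 and 6.31 in EDL (3 of 8), 6.39 and 6.56 in SOL (0 of 8) and 7.60 and 8.43 in the heart (5 of 8). Fast fibre markers averaged 12.62 in C and 12.23 in T in EDL, with 5 of 8 lower, and 10.34 and 9.86 in SOL, with 3 of 8 lower. Endothelial markers averaged 9.12 in C and 8.92 in T in the heart, with 2 of 5 lower, and 8.55 and 8.29 in SOL, with 1 of 5 lower. Heart muscle markers averaged 12.14 in C and 11.77 in T in the heart, with 0 of 7 called, and 0 of 5 adipocyte and 0 of 2 erythroid markers were called in any tissue, with heart means of 6.71 in C and 5.68 in T and of 7.09 and 5.87. The part of these markers in the ligase differences was not tested.

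The next question was whether the tumour difference of a ligase varied between tissues of the same mice. For Trim63 it in SOL minus that in EDL was −1.11 ± 0.23 (adjusted p = 0.00325), and for Fbxo32 it was −1.58 ± 0.22 (adjusted p = 9.35e-05, limma on within-mouse differences). Among all genes, 1.27% were called lower in this comparison. SOL minus EDL for Trim63 ran from −0.78 to 0.50 over the 6 C mice and from −1.87 to −0.79 over the 6 T mice, and for Fbxo32 from −0.58 to 1.04 and from −1.60 to −0.999. In every T mouse, therefore, both genes were higher in EDL than in SOL, whereas C mice varied in sign. Fbxo30 followed with −0.89 ± 0.21 and was not called (adjusted p = 0.0119, limma). For Fbxo31 and Cblb the SOL minus EDL values were −0.05 (95% interval −0.34 to 0.24) and 0.04 (−0.17 to 0.26).

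Against EDL, the heart's tumour difference was lower for 3 members, with heart minus EDL at −2.90 ± 0.40 for Trim63, −2.12 ± 0.33 for Fbxo32 and −0.72 ± 0.15 for Asb2 (adjusted p = 0.000831, 0.00146 and 0.00814, limma), where 1.75% of all genes were called lower. The value of Asb2 was called in 1 of 9 alternative analyses. Fbxo31, at −0.76 ± 0.18, was not called (adjusted p = 0.0155, limma). Against SOL, Trim63 was called alone, at −1.67 ± 0.22 (adjusted p = 0.00181, limma), with 0.356% of all genes called lower. In C mice, without a tumour, 0 of 10 members were called between SOL and EDL (14.1% of all genes were), and 3 had an unadjusted p under 0.05, near the 30.7% of all genes. The heart of C mice was lower than EDL in Fbxo40 (−0.41), Traf6 (−0.53) and Cblb (−0.61), against 11.1% of all genes, and lower than SOL in Fbxo32 (−0.92) and Cblb (−0.70), against 8.26%. In either direction 29.8% and 20.7% of all genes were called, so the counts of 3 and 2 in 10 were near those shares.

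Whether training changed the ligases was asked in mice with and without a tumour. Between C + WBV and C, 0 of 10 members and 0% of all genes were called in EDL, SOL or the heart, and 0 members had an unadjusted p under 0.05 (3.33%, 3.18% and 3.32% of all genes had one). Between T + WBV and T, 0 members and 0% of all genes were called in each tissue. In EDL, SOL and the heart 0, 0 and 1 members had an unadjusted p under 0.05, against 4.79%, 4.99% and 7.48% of all genes. The interaction of tumour and training likewise gave 0 of 10 and 0% in each, with 0 members at an unadjusted p under 0.05, against 3.17%, 4.45% and 5.87% of all genes. The intensity-based moderated t-statistic also gave 0 in these 9 comparisons. The estimates for the 2 classic atrogenes were below 0 in EDL, −0.67 for Trim63 (95% interval −1.39 to 0.06) and −0.50 for Fbxo32 (−1.07 to 0.07), and Trim63 was −0.43 in SOL (−0.91 to 0.04). Without T + WBV replicate 2 these values shrank to −0.17 (−0.66 to 0.33), −0.11 (−0.49 to 0.28) and −0.16 (−0.54 to 0.23). In the heart Fbxo32 was 0.43 higher in T + WBV than in T (0.13 to 0.74, unadjusted p = 0.00808, adjusted p = 0.498, limma), and without that mouse 0.62 (0.39 to 0.86, adjusted p = 0.066). Without it 0 members were called in any tissue, and 0%, 0% and 0.00531% of all genes. The intervals are wide, so the missing calls do not show that the groups were alike.

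Within T + WBV the mice were far apart. Trim63 in EDL was 11.98, 9.27, 11.80, 12.41 and 10.85 in replicates 1 to 5, and in SOL 10.16, 9.07, 10.29, 11.12 and 10.23. Replicate 2 lay inside the C + WBV range in both muscles (9.04 to 9.54 in EDL and 8.82 to 9.31 in SOL), and the other 4 lay above it. Fbxo32 in EDL was 12.12, 10.00, 11.91, 12.44 and 11.46 in the same order, and Fbxo31 was 9.77, 8.60, 10.67, 10.25 and 10.14. Replicate 2, the mouse that kept 100.9% of its body mass, was the lowest of its group for both, within the range of C + WBV for Fbxo32 and just above its highest value of 8.51 for Fbxo31. Over the 10 members, this mouse lay within the range of C + WBV for 8 in EDL, 9 in SOL and 2 in the heart, and below all other T + WBV mice for 6, 5 and 7. The shares over all genes were not computed, so these counts describe the mouse and not the ligases. Members without a called tumour difference, such as Nedd4 and Traf6, were counted too. The C + WBV range came from 3 mice in the heart and 6 in each muscle, so the tissues cannot be compared by these counts.

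**Figure D3:**
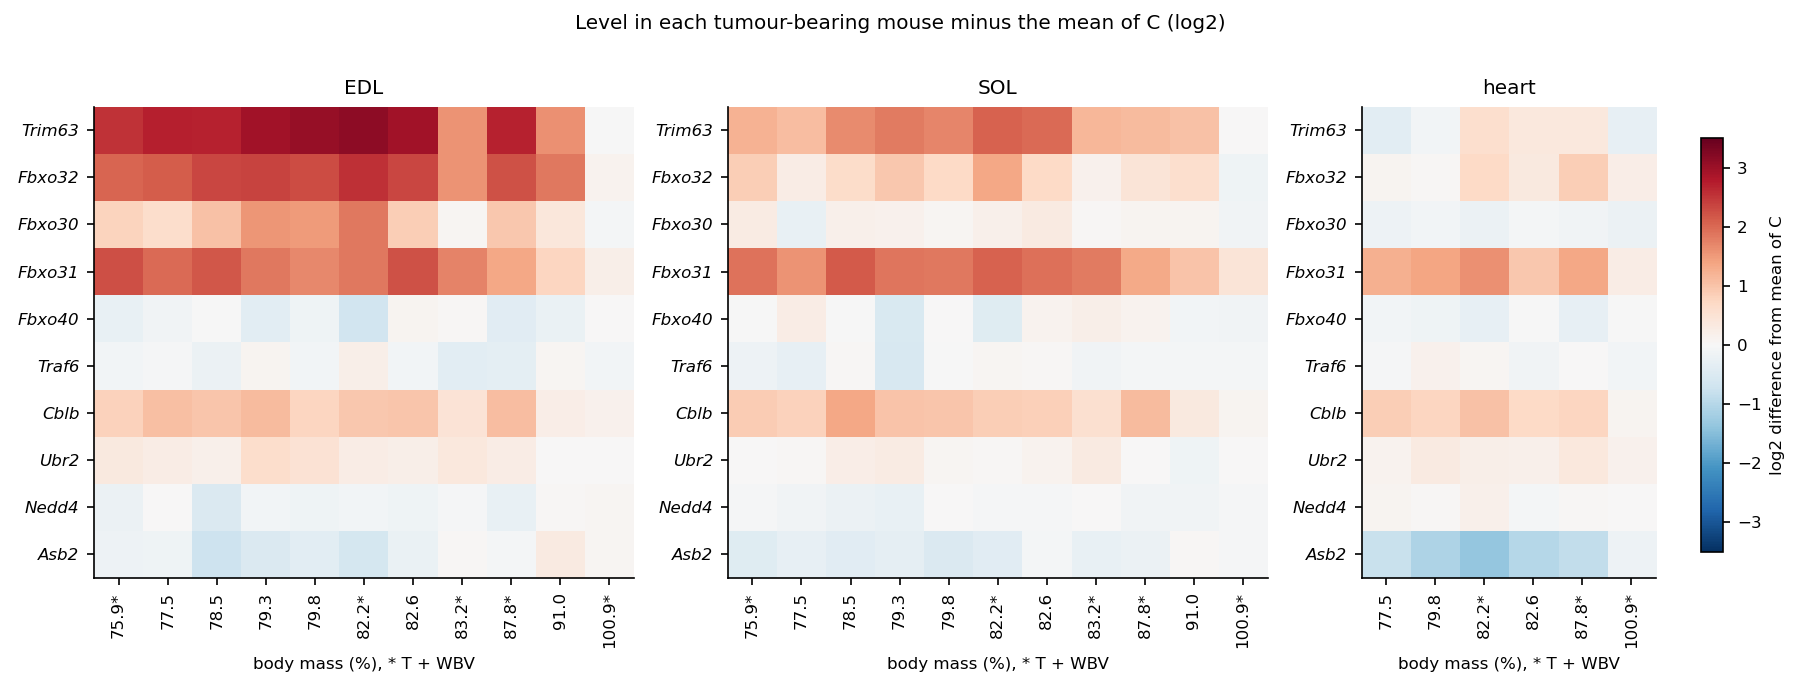
Level of each ligase in each tumour-bearing mouse minus the mean of C in the same tissue (log2, red higher, blue lower), with mice ordered by body mass at day 19 as a percentage of that at the start; an asterisk marks T + WBV mice. The rightmost column of each panel, the mouse at 100.9%, is near 0 for Trim63 and Fbxo32, while Asb2 is below 0 in all 6 hearts.

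The T + WBV mice were also compared with C, the same controls as for T, and with C + WBV. Set against C, they had 4 members higher in EDL, Trim63 (1.99), Fbxo32 (1.71), Fbxo31 (1.48) and Cblb (0.69), where 5.37% of all genes were called higher. In SOL 3 were higher, Fbxo31 (1.51), Trim63 (1.11) and Cblb (0.71), against 2.01% of all genes, and Fbxo32 was not called (0.53, adjusted p = 0.0597, limma). In the heart 0 were called, where 1.47% of all genes were called in either direction, and 7 had an unadjusted p under 0.05, as did 21.1% of all genes. Set against C + WBV, the same 4 members were higher in EDL (2.05, 1.78, 1.52 and 0.74 in the order above), where 5.27% of all genes were called higher. The same 3 were higher in SOL (1.46, 1.11 and 0.75), against 1.94%. That SOL count was 1 with the compared groups alone, with a term for arrays whose description ends in _2, and without T + WBV replicate 1, 3 or 4. The SOL count against C was 1 without replicate 3 or 4. In the heart 0 were called, against 1.49% in either direction, and 5 had an unadjusted p under 0.05, against 20.4%. The heart counts turned on 1 mouse. Fbxo31 in the 3 T + WBV hearts was 9.39, 8.30 and 9.62, with replicate 2 the low one, and without that mouse 4 members were called against C (Fbxo31 1.48, Cblb 0.89, Fbxo32 0.78 and Asb2 −1.11), with 8.83% of all genes, and 5 against C + WBV, with 8.63%. In the 2 remaining T + WBV hearts Fbxo32 was 10.17 and 9.99, above each of the 6 hearts without a tumour, which reached 9.53.

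The labels give the body mass of each mouse, which allowed the ligases to be set against it. The paper defines carcass mass as body mass less the tumour, so body mass also counts the tumour and is not a measure of wasting alone. Among the 11 tumour-bearing mice, 3 members fell in EDL as body mass rose, with slopes per 10 percentage points of body mass of −1.07 ± 0.19 for Trim63, −0.84 ± 0.09 for Fbxo31 and −0.73 ± 0.15 for Fbxo32 (log2 ± SE; adjusted p = 0.00459, 0.000201 and 0.00962, limma). Among all genes, 1.01% had a called slope below 0. In SOL Fbxo31 alone was called, at −0.63 ± 0.09 (adjusted p = 0.00221, limma), against 0.425% of all genes, and Trim63 had −0.58 ± 0.15 (adjusted p = 0.0531, limma). The SOL call was lost with carcass mass in place of body mass. In the heart, with 6 mice, 0 members and 0.213% of all genes were called in either direction, and 3 members had an unadjusted p under 0.05, against 13.8% of all genes. There Cblb had −0.33 ± 0.07 and Asb2, with the opposite sign, 0.37 ± 0.10 (adjusted p = 0.0449 and 0.0973, limma). Pearson's r was −0.88 for Cblb and 0.79 for Asb2 (rho −0.77 and 0.37, exact permutation p of r 0.0597 and 0.1, adjusted 0.55 and 0.572). Without the 2 mice of most extreme body mass, T + WBV replicates 1 and 2, r was 0.05 and −0.69. The other 4 hearts are too few to show whether either relation held among them. In the 12 mice without a tumour, 0 members and 0% of all genes were called in EDL or SOL, and 0 members had an unadjusted p under 0.05, against 4.77% and 2.32% of all genes.

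These slopes rested mostly on the heaviest tumour-bearing mice. Without T + WBV replicate 2 the count of called members was 0 in EDL and 0 in SOL, against 0.0266% and 0% of all genes, and without T replicate 3 it was 1 in EDL, against 0.855%. Pearson's r of Trim63 with body mass in EDL was −0.83 over 11 mice (Spearman's rho −0.37, permutation p = 0.0074 and 0.262, adjusted p = 0.0915 and 0.593). After the 2 mice with the most extreme body mass (T replicate 3 and T + WBV replicate 2) were left out, it was −0.12 (exact permutation p = 0.749). For Fbxo32 in EDL r was −0.79 (rho −0.43, permutation p = 0.0199 and 0.194, adjusted p = 0.141 and 0.529) and 0.00 without these mice. The relation of both genes thus rested on those mice. For Fbxo31 in EDL, whose difference from these genes was not tested, r was −0.94 and rho −0.82 (permutation p = 0.00019 and 0.00345, adjusted p = 0.0331 and 0.15 over 18820 genes), and r was −0.73 without the 2 mice (exact permutation p = 0.025). In SOL its r was −0.90 (rho −0.62, permutation p = 0.00142 and 0.0491, adjusted p = 0.0749 and 0.335) and −0.47 without them (exact permutation p = 0.199), and for Cblb −0.76 in SOL (rho −0.51, permutation p = 0.00853 and 0.116, adjusted p = 0.143 and 0.454) became −0.07. Asb2, with the opposite sign, had r of 0.75 in SOL (rho 0.76, permutation p = 0.00594 and 0.00872, adjusted p = 0.123 and 0.205). Its r was 0.52 without the 2 mice (exact permutation p = 0.15). In EDL its r was 0.59 (rho 0.64, permutation p = 0.0581 and 0.0408, adjusted p = 0.248 and 0.32) and 0.31 without them (exact permutation p = 0.423). Among the 6 T mice alone, rho of Fbxo31 in EDL was −0.37 (r −0.84, exact permutation p = 0.497 and 0.108, adjusted p = 0.919 and 0.592), and 0 members had a called slope in either muscle. The share of all genes with a called slope in T mice alone was not computed. For r, 0 of all genes had an adjusted permutation p under 0.05 in these mice in either muscle, so the count of 0 is not particular to the ligases.

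**Figure D4:**
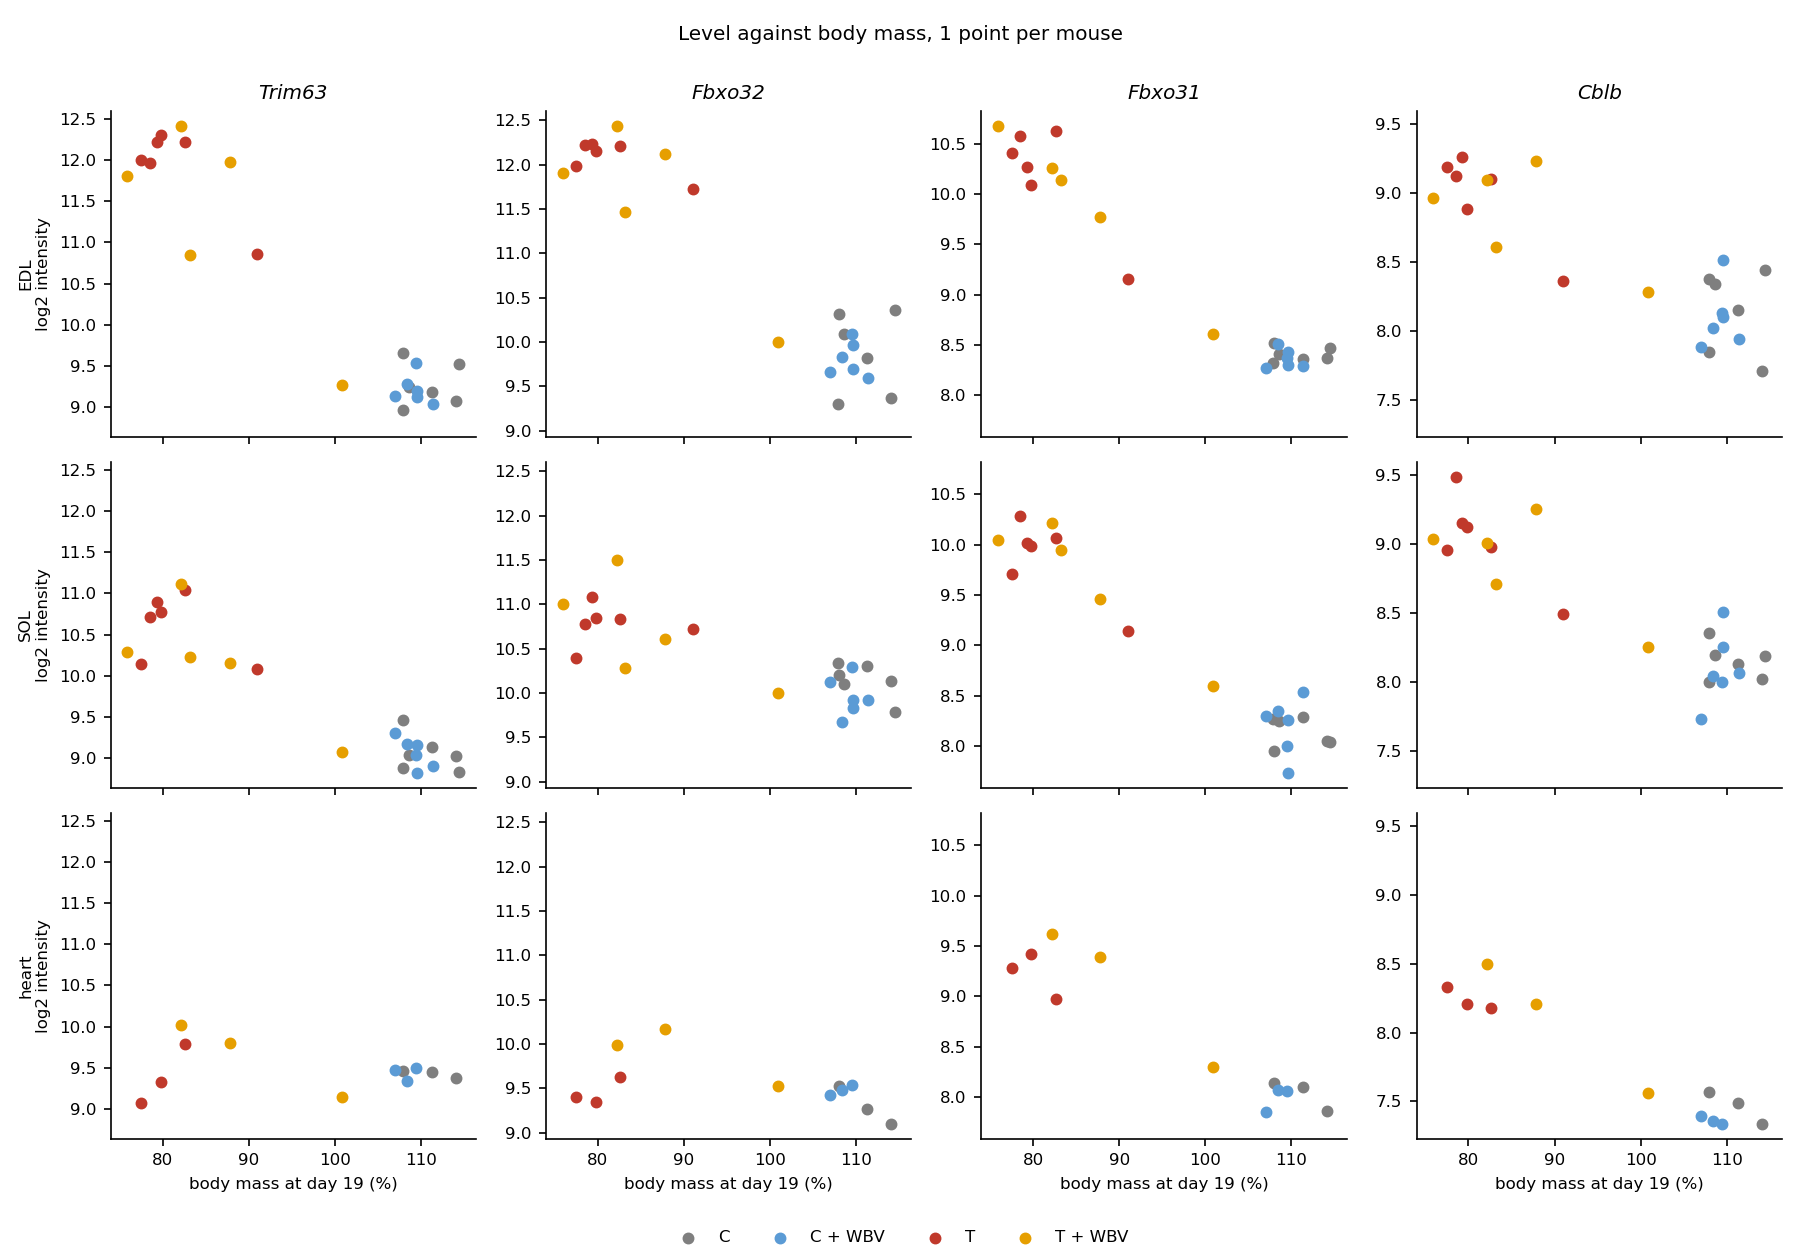
Level of Trim63, Fbxo32, Fbxo31 and Cblb (log2 intensity) against body mass at day 19 as a percentage of that at the start, in EDL, SOL and the heart; each point is 1 mouse, coloured by group. In EDL of tumour-bearing mice up to 91.0%, Trim63 lay between 10.85 and 12.41 and Fbxo32 between 11.46 and 12.44. At 91.0% Trim63 was 10.87, and at 100.9% both genes were within the range of C + WBV. Fbxo31 was 9.15 at 91.0% and 8.60 at 100.9%, below every other tumour-bearing mouse.

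The level of each ligase in EDL was set against its level in SOL of the same tumour-bearing mouse. Over the 11 mice, r between the muscles was 0.93 for Fbxo31, 0.88 for Trim63, 0.88 for Cblb and 0.77 for Fbxo32, with rho of 0.77, 0.80, 0.72 and 0.78, against a median r of 0.25 over all genes. The permutation p of r was 0.00049, 0.00022, 0.00076 and 0.00148, and that of rho 0.00779, 0.00464, 0.0166 and 0.00624. Adjusted over 18820 genes these were 0.0299, 0.022, 0.0356 and 0.0468 for r and 0.158, 0.131, 0.212 and 0.146 for rho, so 0 of 10 members passed 0.01, where 0.106% of all genes did. The smallest p that the 100000 resamples could give was 1e-05. The heaviest mouse was lowest in both muscles for all 4 of these genes. Without it r was 0.85, 0.70, 0.80 and 0.72, with adjusted p of 0.151, 0.218, 0.172 and 0.253. Leaving out both T replicate 3 and T + WBV replicate 2, the heaviest tumour-bearing mice, gave 0.64, 0.63, 0.60 and 0.75 (exact permutation p = 0.0623, 0.0286, 0.104 and 0.0225). The other 6 members had r of 0.71 (Asb2), 0.63 (Fbxo40), 0.59 (Ubr2), 0.43 (Fbxo30), 0.36 (Nedd4) and −0.18 (Traf6), with rho of 0.73, 0.45, 0.53, 0.49, 0.03 and −0.18. Their permutation p of r ran from 0.0138 to 0.594 and adjusted from 0.137 to 0.831, and those of rho from 0.0137 to 0.947 and adjusted from 0.199 to 0.984.

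**Figure D5:**
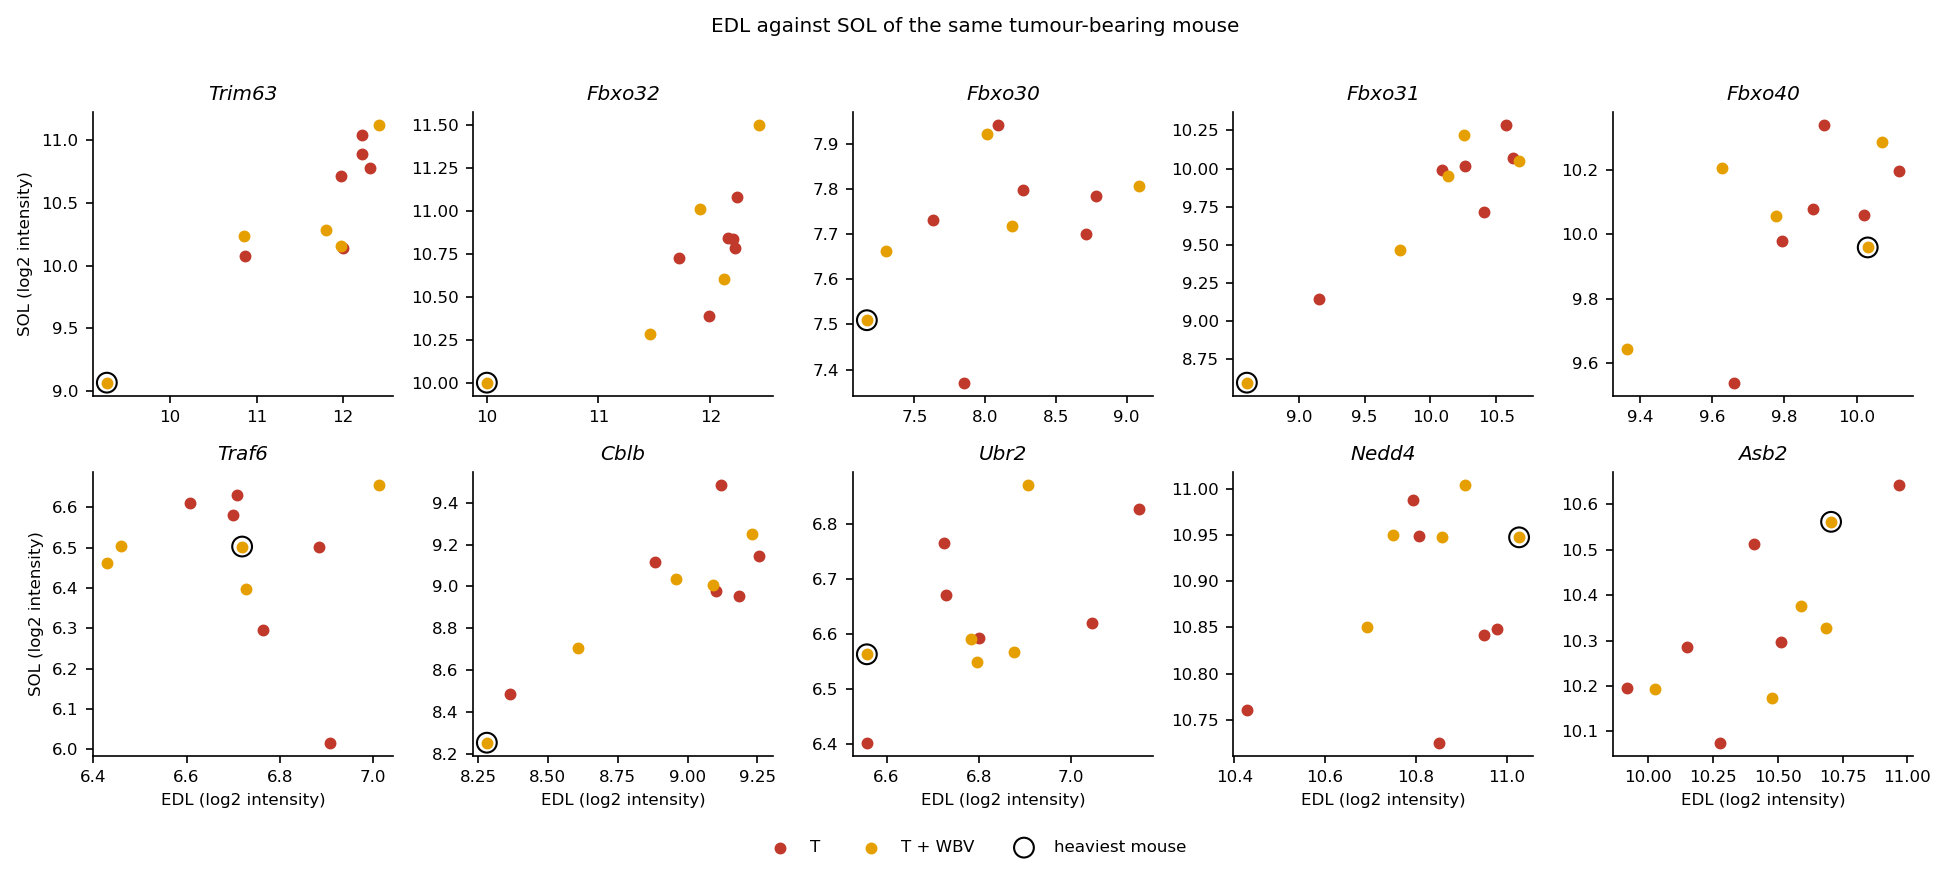
Level in SOL against level in EDL (log2 intensity) of the same tumour-bearing mouse, 1 panel per ligase, with T and T + WBV mice in different colours and the mouse at 100.9% of its body mass circled; axes differ between panels. The circled mouse is lowest in both muscles for Trim63, Fbxo32, Fbxo31 and Cblb, whose r was 0.88, 0.77, 0.93 and 0.88.

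The genes that varied most like the 2 classic atrogenes were ranked by Pearson's r over the 23 arrays of a muscle after each group's mean was taken off, as a description. For Trim63 in EDL the highest were Npc1 (0.97), which carries cholesterol out of lysosomes, Ddit4 (0.95), an inhibitor of mTORC1, Il6ra (0.95), the interleukin-6 receptor, Retreg1 (0.93), an ER-phagy receptor, and Nmt1 (0.93), an N-myristoyltransferase, and the lowest were Tmx2 (−0.94) and Myorg (−0.92). Fbxo32 came at rank 7, with 0.92. For Fbxo32 in EDL the highest were Trim63 (0.92), Arnt (0.91), Ddit4 (0.90), Klhl38 (0.90) and Retreg1 (0.88), and the lowest Tob1 (−0.86) and Tfrc (−0.85), the transferrin receptor. In SOL other genes led. For Trim63 these were Sgms1 (0.87), Errfi1 (0.85), Osbp2 (0.84), Rhou (0.82) and D230025D16Rik (0.82), with Reep5 (−0.88) and Sypl2 (−0.85) lowest. For Fbxo32 they were Fam214a (0.90), Lncpint (0.86), Pim3 (0.84), Ttk (0.83) and Peg3 (0.81), with Rhbdl1 (−0.81) and Cspg4 (−0.81) lowest, and r between Trim63 and Fbxo32 there was 0.78. The arrays of all genes share the same mice, the one at 100.9% among them. The ranking was not recomputed without that mouse or T replicate 3, so how far it rests on them is not known.

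Genes that act with these ligases moved in both directions. The shares of all genes to read their counts against are those of T against C given above, for EDL 10.7% higher and 11.6% lower, for SOL 5.06% and 8.66%, and for the heart 2.7% and 3.04%. Of 21 upstream regulators 20 were measured, and between T and C 14 rose and 1 fell in EDL. In SOL 10 rose and 3 fell, and in the heart 6 rose and 0 fell. Ddit4 differed by 3.42, 3.03 and 2.30 in EDL, SOL and the heart, and Cebpd, a transcription factor of the acute phase response, by 3.03, 2.69 and 1.92. Sesn1, a stress-induced inhibitor of mTORC1, differed by 2.50 and 2.38 in the muscles, and its heart value of 0.52 was not called (adjusted p = 0.0818, limma). The median difference of this list was 1.13, 0.97 and 0.48.

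Of 30 other ligases of muscle 25 were measured, of which 5 rose and 6 fell in EDL, 2 rose and 3 fell in SOL, and 0 rose and 4 fell in the heart, with medians of 0.03, −0.01 and −0.08. Trim55 (MuRF2), a close relative of MuRF1, was called lower in each tissue, at −1.04 in EDL, −0.76 in SOL and −0.46 in the heart. Wwp1, a HECT ligase, was at −0.81 ± 0.11 in EDL, and Siah1a, a RING ligase, was higher by 0.69 ± 0.13. Of 24 SCF subunits, ubiquitin genes and E1 and E2 enzymes 17 were measured, of which 4 rose and 6 fell in EDL, 0 rose and 2 fell in SOL, and 0 rose and 1 fell in the heart. In EDL the scaffold Cul1 was 0.60 higher and the E2 enzyme Ube2j1 0.54 higher, while the E2 enzyme Ube2n, which works with Traf6, was −0.60. Of 21 named substrates and partners 20 were measured, of which 3 rose and 7 fell in EDL, 2 rose and 5 fell in SOL, and 1 rose and 1 fell in the heart. Fgfr1, a growth factor receptor, was 0.82 higher in EDL, and Mybpc2, the fast myosin-binding protein C, and Ppp3ca, the calcineurin catalytic subunit, were −0.80 and −0.65.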

How the data were processed

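The authors hybridised RNA of 58 tissue samples of 23 mice to Affymetrix Mouse Gene 1.1 ST arrays. The deposited values are log2 intensities per probe set, which the authors background-corrected, quantile-normalised and summarised by RMA (version and arrays normalised together not given in the sources used here). RMA compresses differences of dim probe sets, and quantile normalisation assumes like distributions in all arrays. The methods describe a custom probe set definition, whereas the deposited probe sets are those of the array's own annotation, so probe sets may not be the ones the study tested.

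Of 35556 probe sets, 21218 carried 1 gene symbol in the platform annotation, 1881 several and 12457 none. Probe sets that share a single symbol were averaged, leaving 18820 genes. A fit per tissue was made with limma 3.58.1 (R 4.3.3) on the 4 groups together (eBayes with trend), with Benjamini-Hochberg adjustment over all genes and a threshold of 0.01. The labels give the mouse of each sample, so samples of a group are separate mice. Tissue differences were tested on within-mouse differences. Slopes on body mass were fitted with limma, and r and rho were tested two-sided by permutation (100000 resamples, exact for 9 mice or fewer; numpy 2.4.6). The scripts were tested on simulated data.

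The 10 members, the gene lists, the tests and the alternatives were chosen with earlier results of these data known. The text names all 10 members, the 5 genes most and the 2 least correlated with Trim63 and with Fbxo32 in each muscle, and from each gene list the 3 with the largest called difference between T and C in EDL. Any other gene is said to have been named after its values were seen. Alternatives were a second quantile normalisation, the brightest probe set per gene, unaveraged probe sets, a filter on low levels, other variance priors (among them an intensity-based moderated t-statistic), a threshold of 0.05, fits on the groups compared or on all 58 arrays with the mouse as a random block (statmod 1.5.0, correlation 0.137), a term for arrays whose description ends in _2, the replicate number as a block, other measures of wasting, and leaving out each mouse. The labels do not say what this ending means. For arrays, the number of mice limits the precision.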

Additional observations from a re-analysis of the deposited data

Results flagged for a closer look

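In groups of 4 to 6 mice, 6 of 80 gene, tissue and group combinations held a mouse that lay apart from the others of its group by Dixon's criterion at 95%, and chance gives about 1 in 20. T replicate 3 was the lowest T mouse in EDL for Trim63, at 10.87 with the next mouse at 11.97, and for Fbxo31, at 9.15 with the next at 10.09. The same mouse had the highest body mass of its group, 91.0%. The other 4 were single values. Nedd4 in EDL was 10.43 in T replicate 2 with the next mouse at 10.79, and Fbxo40 in EDL was 9.81 in C replicate 6 with the next at 10.04. Traf6 in EDL was 7.00 in C + WBV replicate 4 with the next at 6.71, and Ubr2 in SOL was 6.87 in T + WBV replicate 5 with the next at 6.59.

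The tumour difference (T minus C, log2) of 3 members differed between tissues of the same mice. SOL minus EDL was −1.11 for Trim63 and −1.58 for Fbxo32. The heart minus EDL was −2.90 for Trim63, −2.12 for Fbxo32 and −0.72 for Asb2, and the heart minus SOL was −1.67 for Trim63. Among trained mice (T + WBV minus C + WBV) none of the 6 quantities was called, though each kept its sign. Few genes of any kind were called there in either direction, 0.143% for SOL minus EDL, 0.0797% for the heart minus EDL and 0.0213% for the heart minus SOL. The lost calls are therefore not particular to the ligases. SOL minus EDL was −0.94 for Trim63 and −1.06 for Fbxo32 (adjusted p = 0.0544 and 0.0216, limma). The heart minus EDL was −1.68 for Trim63, −1.25 for Fbxo32 and −0.73 for Asb2 (adjusted p = 0.049, 0.0651 and 0.0353), and the heart minus SOL was −0.72 for Trim63 (adjusted p = 0.252).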

How the results depend on the processing

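Of 501 recomputed counts of called members, 459 stayed within 1.5 times the reported count. The heart count for T against C (3) was 0 with 1 prior variance for all genes, 0 with unaveraged probe sets and 0 in each of the 6 fits that left out a mouse. The calls were lost there, while the estimates over all alternatives stayed at 1.09 to 1.32 for Fbxo31, 0.71 to 0.82 for Cblb and −1.04 to −0.88 for Asb2. At a threshold of 0.05 the heart counts were 4 for T + WBV against C and 3 against C + WBV (0 at 0.01), 1 for the slope (0), 5 for the tumour difference against EDL (3) and 5 for heart against EDL in C (3), and the SOL slope count was 2 (1). At that threshold 1.49% of all genes had a called slope in the heart and 3.19% in SOL. For the other recomputed counts in this paragraph, shares over all genes were not computed. Those counts describe the settings and not the ligases. With all 58 arrays in 1 fit both T + WBV heart counts were 1. T + WBV against C + WBV in SOL (3) gave 1 with the compared groups alone and 1 with a term for arrays whose description ends in _2. The slope count was 0 with muscle mass, 1 with training as a term and 0 in T mice alone in EDL (3), 0 with carcass mass, 0 with muscle mass and 0 in T mice alone in SOL (1), and 2 with training as a term in the heart (0).

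With replicates named by their muscle numbers, leaving out 1 mouse gave 0 to 5 for T + WBV against C + WBV and 0 to 4 against C in the heart (both highest without T + WBV replicate 2). In SOL it gave 1 to 4 against C + WBV (lowest without T + WBV replicate 1, 3 or 4) and 1 to 4 against C (without replicate 3 or 4). Slopes gave 0 to 3 in EDL and 0 to 1 in SOL (both 0 without T + WBV replicate 2, and 1 in EDL without T replicate 3). The tumour difference gave 1 to 3 for SOL minus EDL (lowest without T replicate 6 or C replicate 6) and 0 to 1 for the heart minus SOL (0 without C replicate 2, C replicate 3 or T replicate 5), and the heart against SOL in C gave 1 to 2 (1 without C replicate 3 or 5). The heart slope of Fbxo31 (−0.45) lay between −0.52 and 0.0397, the last without T + WBV replicate 2. The cause of these changes was not tested. Shares over all genes were computed only without T + WBV replicate 2 and, for the EDL slope, without T replicate 3. The other counts describe the fits and not the ligases.

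Over 67 member values called in at least 1 analysis, 964 of 1134 recomputed values kept sign and side of the threshold, 122 lost the call, 47 gained it and 1 reversed. Among 233 values never called, 260 of 3876 recomputed values changed sign, over 104 of them. Replicate numbers are shared between groups by number alone. Same-numbered mice of different groups had a median r of 0.01 in EDL, 0.03 in SOL and −0.00 in the heart. The highest r of a pair was 0.23, 0.40 and 0.04, and the lowest −0.42, −0.41 and −0.30. In these tissues 8 of 23, 5 of 23 and 1 of 12 arrays were most correlated with their own number. The counts that chance gives were not computed. With the replicate number as a block, 14 of 18 counts were equal. The others were 3 for T + WBV against C in EDL, 3 for T against C in SOL, and 2 each for T + WBV against C and against C + WBV in SOL. The 4 values past the threshold only without the block were Fbxo32 in T against C in SOL and Cblb in those 3 T + WBV comparisons.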

Other observations

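The genes in this paragraph were named after their values were seen. Among the 25 other muscle ligases measured, the 4 called between T and C in the heart were lower in T, where 3.04% of all genes were called lower and 2.7% higher. They were Fbxl22, an F-box protein of the cardiac Z-disc (−1.61 ± 0.36, log2 ± SE, adjusted p = 0.00911), Asb5, a SOCS-box protein like Asb2 (−1.29 ± 0.17, 0.00048), Klhl41, a Kelch protein of the sarcomere (−0.60 ± 0.12, 0.00506), and Trim55 (−0.46 ± 0.10, 0.00808; limma). In the same hearts the slow myosin heavy chain Myh7 averaged 7.85 in C and 10.42 in T (2.57 ± 0.53, adjusted p = 0.00635, limma). It was the 1 of 6 slow fibre markers called higher there, while 1 was called lower and 4 were not called, with a median difference of −0.21. The MuRF relatives of Trim63 moved in opposite directions in EDL, where Trim54 (MuRF3) was 0.47 ± 0.11 higher in T (adjusted p = 0.00102, limma) and Trim55 (MuRF2) was at −1.04 ± 0.15. In SOL and the heart Trim54 differed by 0.31 and 0.39 and was not called (adjusted p = 0.0224 and 0.036, limma).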
